A study of Drosophila melanogaster with 8 samples.

Results

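The cytochrome P450 genes of Drosophila melanogaster were followed through whole pupae that developed at 3 g or at the normal 1 g. Members were the genes of the deposited table named Cyp with a number, a letter and a number, as P450s are, with Cyp18a1 left out. There were 81 of them among 13918 genes, in 19 families by the number after Cyp, of which 12 had a single member. All 81 matched a current RefSeq symbol. P450s known under other names, such as phantom (phm) and disembodied (dib), were not members. The pupae were wild-type Canton-S, collected early, at stage P6. From 4 whole pupae pooled, 1 library of polyadenylated RNA was made, 4 such libraries to a group, so every value sums over all tissues. Flies were kept at 25 °C, and those of the treated group developed at 3 g throughout, while the control group stayed at 1 g. Both groups shared the strain, the named stage and the sequencing lane, and the labels used here give no sex. Markers of timing differed between the groups all the same, as given below. The labels name no separate cultures for the pools. The tests therefore weigh the groups against pool-to-pool spread alone, some of which may be technical.

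P450s are haem enzymes that insert an oxygen atom into small, mostly fatty molecules. Those of the endoplasmic reticulum take their electrons from NADPH through P450 reductase, and those of mitochondria through adrenodoxin and its reductase. Insects use them to break down plant toxins and insecticides, to make and destroy ecdysteroids, and to make the hydrocarbons that waterproof the cuticle. They are sorted into the CYP2, CYP3, CYP4 and mitochondrial clans. The CYP3 clan holds most of the enzymes known from detoxification, such as Cyp6 and Cyp9. The largest share of the CYP4 clan is the Cyp4 family, known for the oxidation of fatty acids and hydrocarbons.

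Between 3 g and 1 g, 3 of 60 tested P450 genes were higher, 1 was lower and 56 did not pass. Thus 6.67% of the tested P450 genes passed, beside 4.28% of all tested genes. Cyp304a1 rose 5.86-fold, Cyp309a1 2.86-fold and Cyp6d4 1.88-fold, and Cyp4g15 fell 2.18-fold, each on the scale of TPM plus 0.5. Of these, Cyp304a1 alone passed under each alternative tried, and its 4 pools at 3 g lay far above those of the controls. The most abundant member, the hydrocarbon enzyme Cyp4g1, was also lower in every pool at 3 g, though it did not pass. The summed level of all P450 genes overlapped between the groups.

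Levels are given in TPM, each transcript's share of its library after allowing for its length, so genes can be compared. Such a share keeps no record of depth, so the counting error is unknown. limma was run on log2(TPM + 0.5) for the 12044 genes whose mean over all pools reached 1 TPM. On this scale the change of a low gene is understated. Among them 516, or 4.28%, passed an adjusted p of 0.05, with 2.23% higher and 2.06% lower at 3 g. For the P450s the share was 6.67%. At an unadjusted p under 0.05 there were 18 P450 genes, 8 higher and 10 lower, which is 30.0% of those tested. Among all tested genes 16.3% had such a p, 8.58% higher and 7.68% lower. The 4 pools of a group did not overlap those of the other for 12 of the 60, with 3 g above for 5 and below for 7, which is 20.0% of them. Among all tested genes 12.5% did not overlap, 6.49% with 3 g above and 6.00% with 3 g below. A log2 change of at least 1 in size was seen for 10 of the 60 members and for 7.94% of all genes. The median size of the log2 change was 0.38 among members and 0.23 among all genes. Members also varied more within a group, with a median coefficient of variation of 24.9% at 1 g and 32.6% at 3 g, where the medians of all tested genes were 18.7% and 20.2%. The median log2 change with its sign was -0.11 for members and -0.020 for all genes, and 35 of the 60 members, or 58.3%, lay below 0, as did 52.8% of all tested genes.

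**Figure D1:**
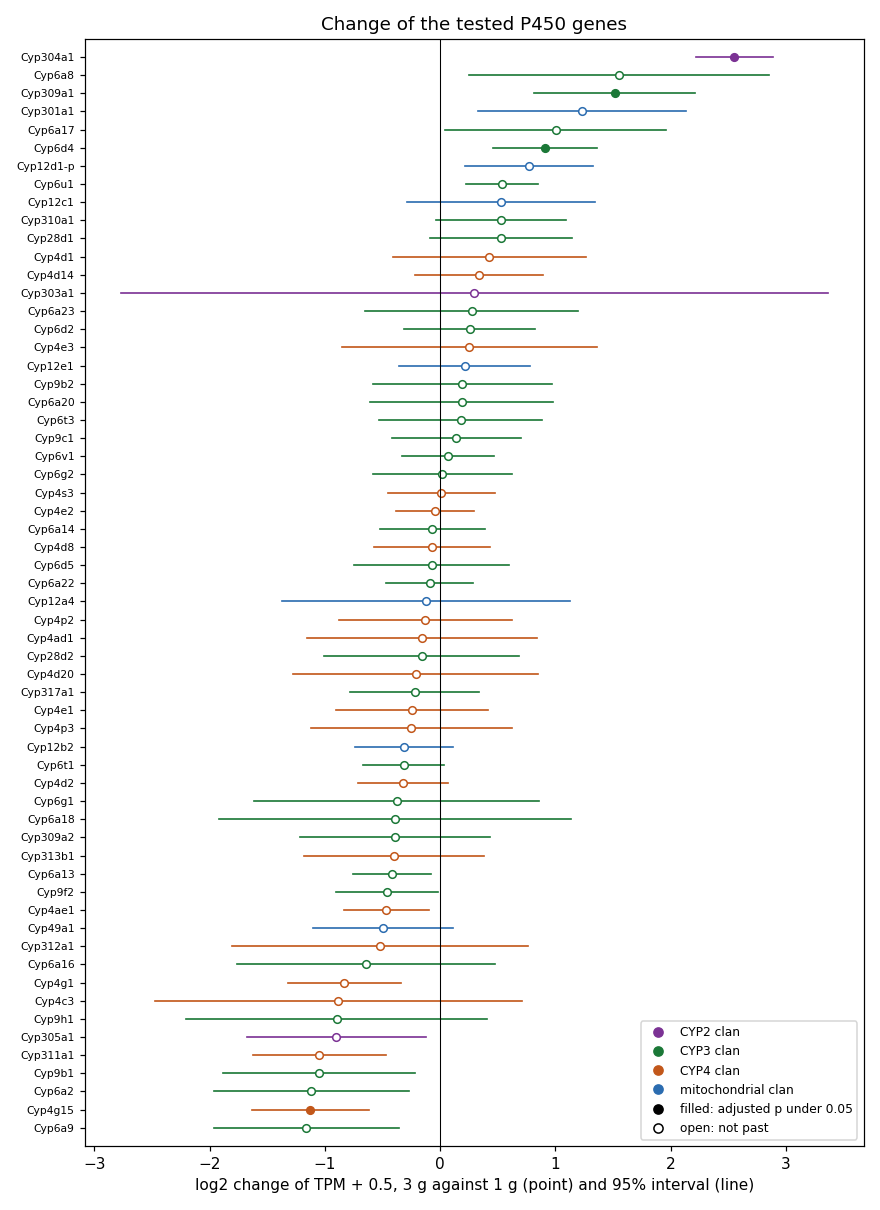
Log2 change of each of the 60 tested P450 genes, 3 g against 1 g (horizontal axis, log2 of TPM + 0.5), as a point with its 95% interval from limma, coloured by clan; filled points passed an adjusted p of 0.05. Cyp304a1 stands apart at 2.55 with a narrow interval, most other intervals cross 0, and that of Cyp303a1 is the widest.

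Among the enzymes of the CYP2 clan, Cyp304a1 was the P450 with the largest rise. Its pools read 10.1, 9.86, 7.93 and 7.40 TPM at 1 g and 49.4, 62.4, 49.7 and 54.0 TPM at 3 g. The groups were wide apart, with all 4 pools at 3 g far above all 4 controls. The means were 8.82 ± 1.35 TPM at 1 g and 53.9 ± 6.06 TPM at 3 g (SD, n = 4 pools each). Its log2 change was 2.55 ± 0.14 (SE, adjusted p = 7.80e-05, limma), with a 95% interval of 2.22 to 2.88. Leaving out any 1 pool gave 2.47 to 2.61. By mean level over the 8 pools it ranked 11 among the 81 P450s.

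The other members of that clan did not pass. Cyp303a1, which is needed for the external sensory bristles to form and work, was measured at 83.2, 119.5, 159.6 and 1.82 TPM at 1 g. At 3 g it was at 69.5, 46.9, 19.5 and 127 TPM. Control replicate 4 was far below the other 7 pools, and the groups overlapped. Its log2 change was 0.30 with an interval of -2.77 to 3.37 (adjusted p = 0.936), and without control replicate 4 it was -1.12 (adjusted p = 0.517). Cyp305a1 was at 13.4 ± 3.13 TPM at 1 g and 7.30 ± 2.81 TPM at 3 g (n = 4, adjusted p = 0.222). Its pools overlapped only between control replicate 1 at 9.08 TPM and 3 g replicate 1 at 9.64 TPM.

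In the CYP3 clan, 2 of 31 tested members were higher and 0 lower (limma; 5 and 5 at an unadjusted p under 0.05), with 15 above 0 in log2 change and 16 below. Over all tested genes 4.28% passed, 16.3% had an unadjusted p under 0.05, and 52.8% lay below 0. The first of the 2 higher members was Cyp309a1, with 20.5, 13.4, 22.9 and 14.0 TPM at 1 g and 28.3, 67.1, 57.0 and 58.4 TPM at 3 g. The groups did not overlap, with 3 g replicate 1 nearest to the controls. The means were 17.7 ± 4.76 and 52.7 ± 16.9 TPM (SD, n = 4), and the log2 change was 1.51 ± 0.30 (SE, adjusted p = 0.0341). The call depended on the set of pools, the scaling and the weighting. It passed when 3 g replicate 1 was left out (0.0122) and did not when any one of the other 7 pools was (adjusted p = 0.0529 to 0.115). After median-of-ratios rescaling it was at 0.0611 and after quantile normalization at 0.0597, and with sample weights at 0.0562.

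The second was Cyp6d4, with 30.2, 24.5, 24.1 and 16.1 TPM at 1 g and 47.5, 49.6, 39.4 and 40.0 TPM at 3 g. Again the groups did not overlap. Cyp6d4 had means of 23.7 ± 5.77 and 44.1 ± 5.22 TPM (SD, n = 4) and a log2 change of 0.91 ± 0.20 (SE, adjusted p = 0.0428). It passed without control replicate 1 or 4 (0.0366 and 0.0447) and not without control replicate 2 or 3 or any one pool at 3 g (0.0725 to 0.123), nor after quantile normalization (0.0558). Its relatives of the Cyp6d subfamily did not pass. Cyp6d5 stood at 36.8 ± 6.39 against 36.7 ± 14.1 TPM, and Cyp6d2 at 8.28 ± 2.45 against 9.97 ± 2.55 TPM (1 g against 3 g, n = 4).

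Other CYP3 genes had values that kept the groups apart without passing. Cyp6u1 was at 13.5 to 18.7 TPM at 1 g and 21.2 to 25.9 TPM at 3 g (log2 change 0.54, adjusted p = 0.0716), and it passed without control replicate 1 (0.0488) and with sample weights (0.0192). Cyp6a17, known in flies for a part in temperature preference, was at 16.8 to 20.2 TPM at 1 g and 20.3 to 86.1 TPM at 3 g (log2 change 1.00, adjusted p = 0.280). The 2 highest pools at 3 g, replicates 4 and 2, carried that difference, while replicate 3 lay just above the highest control. Below the controls in every pool at 3 g were Cyp6a9, Cyp6a2 and Cyp9b1. Cyp6a9 was at 3.17 to 8.26 TPM at 1 g and 0.96 to 2.94 TPM at 3 g (log2 change -1.16, adjusted p = 0.125), and it passed with sample weights (0.0294). Cyp6a2, known from insecticide resistance, was at 2.63 to 4.28 TPM at 1 g and 0.35 to 2.12 TPM at 3 g (log2 change -1.12, adjusted p = 0.160). Cyp9b1 was at 2.58 to 4.03 TPM at 1 g and 0.41 to 2.55 TPM at 3 g (log2 change -1.05, adjusted p = 0.179).

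Cyp6a8, one of the P450s that drugs such as barbiturates induce in flies, split the pools at 3 g. It was at 1.78, 2.48, 2.94 and 1.71 TPM at 1 g and at 2.12, 15.2, 15 and 5.47 TPM at 3 g. Replicate 1 at 3 g sat among the controls and replicates 2 and 3 were well above them. The log2 change was 1.55 ± 0.57 (SE, adjusted p = 0.208), and 2.08 (adjusted p = 0.0415) without 3 g replicate 1. Cyp6a13 was at 28.0 ± 3.12 TPM at 1 g and 20.9 ± 3.005 TPM at 3 g (log2 change -0.42, adjusted p = 0.193, and 0.0344 with sample weights), with its groups meeting at 23.7 TPM, the lowest control and the highest pool at 3 g. Cyp9f2 was at 19.1 ± 1.91 and 14.0 ± 3.88 TPM (log2 change -0.46, adjusted p = 0.281). Cyp310a1 was at 17.0 ± 4.29 and 24.7 ± 6.098 TPM, Cyp6t1 at 13.0 ± 1.92 and 10.3 ± 1.30 TPM, Cyp28d1 at 3.10 ± 0.753 and 4.80 ± 1.58 TPM, and Cyp9h1 at 5.11 ± 1.21 and 3.28 ± 2.74 TPM (1 g and 3 g, n = 4, adjusted p = 0.353 to 0.554). Among the abundant genes of the clan, Cyp9c1 (80.3 ± 10.4 and 91.8 ± 28.0 TPM) and Cyp9b2 (35.6 ± 15.3 and 39.9 ± 13.4 TPM) overlapped widely (adjusted p = 0.820 and 0.822). The DDT resistance gene Cyp6g1, named here after its values were seen, was at 0.43 to 5.92 TPM at 1 g and 1.02 to 2.05 TPM at 3 g, so that its highest and lowest pools were both controls.

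In the CYP4 clan 0 of 19 tested members were higher and 1 was lower (limma; 0 and 4 at an unadjusted p under 0.05), and 15 lay below 0 in log2 change against 4 above. Over all tested genes 2.06% passed and were lower, 7.68% were lower at an unadjusted p under 0.05, and 52.8% lay below 0. The member that fell was Cyp4g15, the relative of Cyp4g1 known from the nervous system. It was at 16.2, 15.3, 15.7 and 25.1 TPM at 1 g and at 9.91, 8.58, 7.86 and 5.63 TPM at 3 g. The groups did not overlap, and control replicate 4 stood above the other 3 controls. The means of Cyp4g15 were 18.1 ± 4.72 and 7.995 ± 1.79 TPM (SD, n = 4), with a log2 change of -1.12 ± 0.22 (SE, adjusted p = 0.0323). Without 3 g replicate 1 it passed (0.0430), and without any one of the other 7 pools it did not (0.0507 to 0.0874), nor after median-of-ratios rescaling (0.0555) or quantile normalization (0.102). Without control replicate 4 its log2 change was -0.96.

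Cyp4g1, the oenocyte enzyme that makes cuticular hydrocarbons by taking a carbon off fatty aldehydes, was the most abundant P450 in all 8 pools. Its lowest pool, at 164 TPM, lay above the highest value of every other member in any pool. It was at 269, 263, 306 and 507 TPM at 1 g and at 186, 164, 195 and 183 TPM at 3 g. All controls lay above all pools at 3 g, with control replicate 4 standing out. The means were 336 ± 116 and 182 ± 13.3 TPM (SD, n = 4), and the log2 change of -0.83 ± 0.21 did not pass (adjusted p = 0.0750). It was -0.62 without control replicate 4, and then passed (0.0297), as it did with sample weights (0.0174). Beside it, the summed level of 5 oenocyte markers was 145 to 179 TPM at 1 g and 136 to 201 TPM at 3 g, which overlapped. Most of that sum was Desat1, at 119.7 ± 11.03 TPM at 1 g and 117 ± 17.6 TPM at 3 g. The oenocyte marker CG18609 was lower in every pool at 3 g, as Cyp4g1 was, at 5.20 to 16.4 TPM at 1 g and 1.49 to 4.51 TPM at 3 g. Its log2 change was -1.72 (adjusted p = 0.0630, limma), and it was not among the oenocyte markers first planned. CG17374, the remaining tested marker, had the higher mean at 3 g, with overlap. It was at 35.6 ± 8.04 TPM at 1 g and 45.0 ± 11.7 TPM at 3 g. The part of these markers in the Cyp4g1 values was not tested. Because the values come from whole pupae, fewer cells of a type and less RNA per cell cannot be told apart.

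Of the other CYP4 genes, Cyp311a1 was closest to the threshold. Its pools read 18.4, 19.1, 15.2 and 18.5 TPM at 1 g and 11.7, 7.44, 10.7 and 5.10 TPM at 3 g, with no overlap. The log2 change was -1.05 ± 0.25 (adjusted p = 0.0585), and it passed without 3 g replicate 1 (0.0485). Cyp4ae1 was also lower in each pool at 3 g, at 4.47 to 5.18 TPM against 5.68 to 8.54 TPM in controls (adjusted p = 0.179). Cyp4e2 was at 71.4 ± 8.45 TPM at 1 g and 69.3 ± 9.46 TPM at 3 g, and its log2 change of -0.045 had an interval of -0.39 to 0.30. Cyp312a1 was at 25.5 to 55.1 TPM in controls and at 8.34, 40.6, 42.6 and 47.3 TPM at 3 g, where replicate 2 was the low one. The summed male germline markers were lowest in that same pool, at 2058 TPM, and their part in the Cyp312a1 values was not tested. Cyp4d2 was at 12.9 ± 1.99 and 10.2 ± 1.77 TPM (adjusted p = 0.425).

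In the mitochondrial clan 0 of 7 tested members passed in limma (0 higher, 0 lower, and 2 at an unadjusted p under 0.05). These were Cyp301a1 and Cyp12d1-p. Over all tested genes 4.28% passed and 16.3% had an unadjusted p under 0.05. Cyp301a1, which is needed to form the adult cuticle, was at 17.1, 11.3, 16.6 and 14.5 TPM at 1 g and at 29.5, 57.5, 16.4 and 54.3 TPM at 3 g. Replicate 3 at 3 g lay among the controls and the other 3 above them. The log2 change of Cyp301a1 was 1.23 ± 0.39 (adjusted p = 0.144), and 1.59 without 3 g replicate 3 (adjusted p = 0.0326). Cyp12d1-p, a P450 that toxins induce, was at 0.87 to 1.65 TPM at 1 g and 1.60 to 3.33 TPM at 3 g, with a slight overlap (adjusted p = 0.140). Its near-identical copy Cyp12d1-d was listed at 0 in every pool, so the split of reads between the copies is uncertain. Cyp49a1 was at 11.6 ± 1.59 and 8.415 ± 2.81 TPM and Cyp12b2 at 6.57 ± 0.653 and 5.29 ± 1.42 TPM (1 g and 3 g, n = 4, adjusted p = 0.445 and 0.510).

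**Figure D2:**
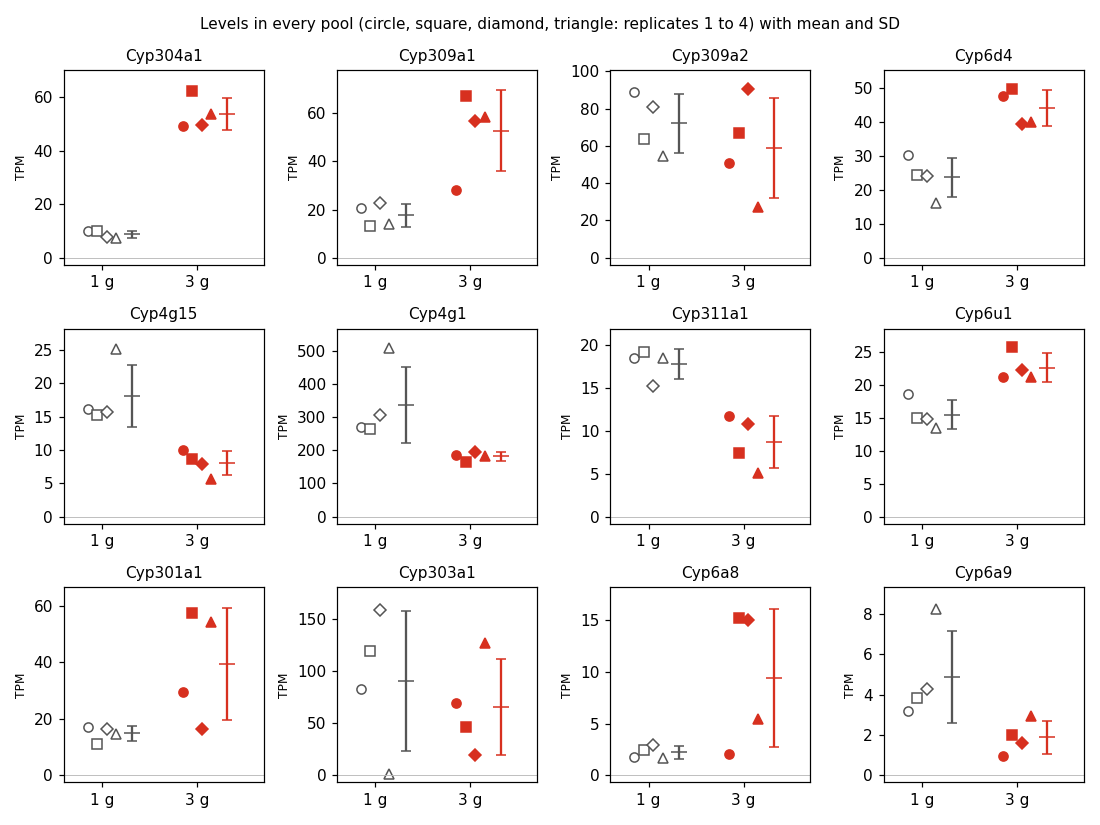
Level (TPM, vertical axis) of 12 P450 genes in each pool at 1 g (open, grey) and 3 g (filled, red); the bar beside each group is the mean ± SD of 4 pools. Cyp304a1, Cyp309a1, Cyp6d4, Cyp4g15, Cyp4g1, Cyp311a1, Cyp6u1 and Cyp6a9 show no overlap between groups, while Cyp309a2, Cyp301a1, Cyp303a1 and Cyp6a8 do.

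Summed over all 81 members, P450 transcripts came to 1138, 1119.9, 1275 and 1245 TPM at 1 g and to 1082, 1138, 1102 and 1159.5 TPM at 3 g. These sums were about a thousandth of each library, and the groups overlapped. The means were 1194 ± 76.8 TPM and 1120.4 ± 35.0 TPM (SD, n = 4). Cyp4g1 made up 23.5% to 40.8% of the sum at 1 g and 14.4% to 17.7% at 3 g. The 5 highest members together made up 53.2% to 59.8% at 1 g and 41.9% to 47.3% at 3 g. Without Cyp4g1 the sum was 737 to 969 TPM at 1 g and 896 to 976 TPM at 3 g, which overlapped. Leaving out Cyp303a1 as well, chosen after its values were seen, gave 736 to 809 TPM at 1 g and 827 to 928 TPM at 3 g, with no overlap. That gap rested on Cyp304a1, at 7.40 to 10.1 TPM at 1 g and 49.4 to 62.4 TPM at 3 g. Without Cyp304a1 too, the sums of the groups overlapped.

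The CYP4 clan summed to 472 to 757 TPM at 1 g and 329 to 403 TPM at 3 g, with no overlap. Without Cyp4g1 its sums were 203 to 249.7 TPM at 1 g and 165 to 217 TPM at 3 g, and the groups then overlapped. The CYP3 clan summed to 415 to 517 TPM at 1 g and 486.5 to 602.5 TPM at 3 g, which overlapped. The mitochondrial clan was higher in each pool at 3 g, at 52.0 to 95.4 TPM against 46.3 to 50.9 TPM, and overlapped without Cyp301a1, at 34.7 to 39.3 TPM against 33.8 to 35.4 TPM. The CYP2 clan ranged from 22.7 to 182 TPM at 1 g and from 77.5 to 189 TPM at 3 g, which overlapped. Without Cyp303a1, again chosen after its values were seen, only Cyp304a1 and Cyp305a1 were left in the CYP2 clan. Their sums were 19.2 to 26.3 TPM at 1 g and 58.0 to 65.6 TPM at 3 g, with no overlap. That gap was the rise of Cyp304a1 already given, since the mean of Cyp305a1 was lower at 3 g. These sums are descriptions and were not tested.

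**Figure D3:**
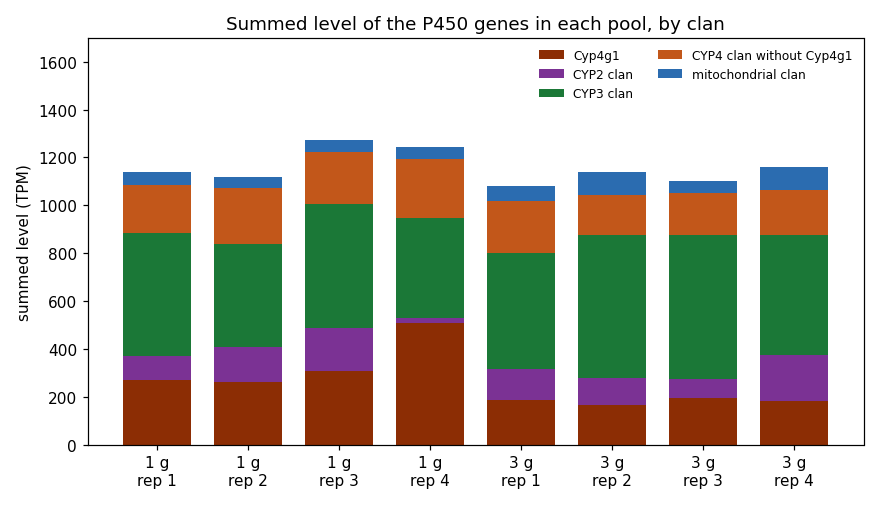
Summed level of the P450 genes in each of the 8 pools (TPM, vertical axis), stacked by clan with Cyp4g1 shown apart from the rest of the CYP4 clan. The totals run from 1082 to 1275 TPM, the Cyp4g1 part is 164 to 195 TPM at 3 g and 263 to 507 TPM at 1 g, and the CYP2 part is smallest in control replicate 4.

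By family, Cyp6 was the largest with 23 members, of which 20 were tested, 1 was higher and 0 lower (limma; 4 and 3 at an unadjusted p under 0.05), and its median log2 change was -0.025 with 10 members on each side of 0. Cyp4 had 22 members and 16 tested, with 0 higher and 1 lower (limma; 0 and 3 at an unadjusted p under 0.05) and a median of -0.19, and 12 of its members lay below 0. Cyp9 had 5 members, all tested and none past (limma, 2 at an unadjusted p under 0.05), with a median of -0.46. Of 7 Cyp12 genes 5 were tested and none passed (limma, 1 at an unadjusted p under 0.05), with a median of 0.21. Of 4 Cyp28 genes 2 were tested and none passed (limma, 0 at an unadjusted p under 0.05). The Cyp309 family held Cyp309a1, which rose, and Cyp309a2, which did not pass, and Cyp304 held Cyp304a1 alone. The 6 genes of Cyp313 were low throughout, and Cyp313b1 was the one tested, at 1.62 ± 0.310 TPM at 1 g and 1.21 ± 0.678 TPM at 3 g. Beside these counts, 4.28% of all tested genes passed, 16.3% had an unadjusted p under 0.05 and 52.8% lay below 0. No test between families was made.

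Many P450 genes lie side by side. In the RefSeq gene table (assembly Release 6 plus ISO1 MT, used for names and order only), 43 of the 81 stood in 15 runs with no other protein-coding gene between them. Of 9 runs with at least 2 tested members, 3 had all of these on one side of 0 in log2 change and 6 had them on both. The neighbours Cyp309a1 and Cyp309a2 were such a pair. Cyp309a2 was at 89.2, 63.8, 81.0 and 54.5 TPM at 1 g and at 51.0, 67.1, 90.3 and 27.0 TPM at 3 g. It overlapped fully between the groups, and its log2 change was -0.39 with an interval of -1.22 to 0.43. The ratio of Cyp309a1 to Cyp309a2 was 0.210 to 0.283 at 1 g and 0.555 to 2.16 at 3 g.

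Cyp9b1 and Cyp9b2 were another pair with changes on opposite sides of 0, and Cyp28d1 and Cyp28d2 a further one, though none of these 4 passed. The longest run had 9 members, Cyp6a22, Cyp6a17, Cyp6a23, Cyp6a19, Cyp6a9, Cyp6a20, Cyp6a21, Cyp6a8 and Cyp317a1. It held Cyp6a8 with a log2 change of 1.55 and Cyp6a9 with one of -1.16. The ratio of Cyp6a8 to Cyp6a9 was 0.207 to 0.689 at 1 g and 1.86 to 9.20 at 3 g. These are the members of the run with the most opposed changes and neither passed, so the gap between the groups follows from the choice of the pair. The other 3 ratios computed overlapped between the groups. That of Cyp28d1 to Cyp28d2 was 0.50 to 1.47 at 1 g and 0.616 to 3.95 at 3 g, that of Cyp9b1 to Cyp9b2 0.0600 to 0.126 and 0.0123 to 0.0609, and that of Cyp6a13 to Cyp6a14 4.57 to 7.31 and 3.69 to 5.92. Genes of such runs are often similar copies, and reads shared between copies make the value of each uncertain. In the Ensembl annotation, exons of 24 members overlap those of another annotated entry, Cyp6a9 and Cyp6a19 among them. For Cyp12a4, Cyp6a14 and Cyp6a22 that entry is a transposable element only. Nothing used here says whether reads were counted by strand. Cyp303a1, Cyp301a1, Cyp6u1, Cyp9b1 and Cyp4ae1 also overlap other genes in this way, while Cyp304a1, Cyp309a1, Cyp6d4, Cyp4g15, Cyp4g1 and Cyp311a1 do not. Across chromosomes, 34 members lie on chromosome 2R, 15 on 3R, 13 each on 2L and X, and 6 on 3L. The median log2 change of tested members was -0.32 for 10 on the X, -0.21 for 5 on 3L, -0.12 for 9 on 3R, -0.079 for 28 on 2R and 0.28 for 8 on 2L. Over all tested genes of these chromosomes the medians were -0.0091, -0.0022, -0.019, -0.030 and -0.043 in the same order.

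The pools were uneven in how they sat within their group. Among the 60 tested members, control replicate 4 was the highest control for 21 and the lowest for 25. The corresponding numbers were 16 and 17 for control replicate 1, 6 and 11 for replicate 2, and 17 and 7 for replicate 3. At 3 g the highest value fell in replicates 1 to 4 for 18, 15, 16 and 11 members, and the lowest for 11, 11, 17 and 21. Cyp4c3 was at 8.93 TPM in control replicate 4 and at 0.40 to 0.91 TPM in the other 7 pools. Cyp6a18 was at 6.25 TPM in that pool and at 0.69 to 0.92 TPM in the other controls. Cyp6a16, at 22.8 TPM in that pool, was at 4.31 to 7.65 TPM in the other controls. These 3 genes were chosen after their values were seen. The same pool stood apart in muscle markers, whose sum was 25257.5 TPM in it and 6785 to 10406 TPM in the other controls.

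**Figure D4:**
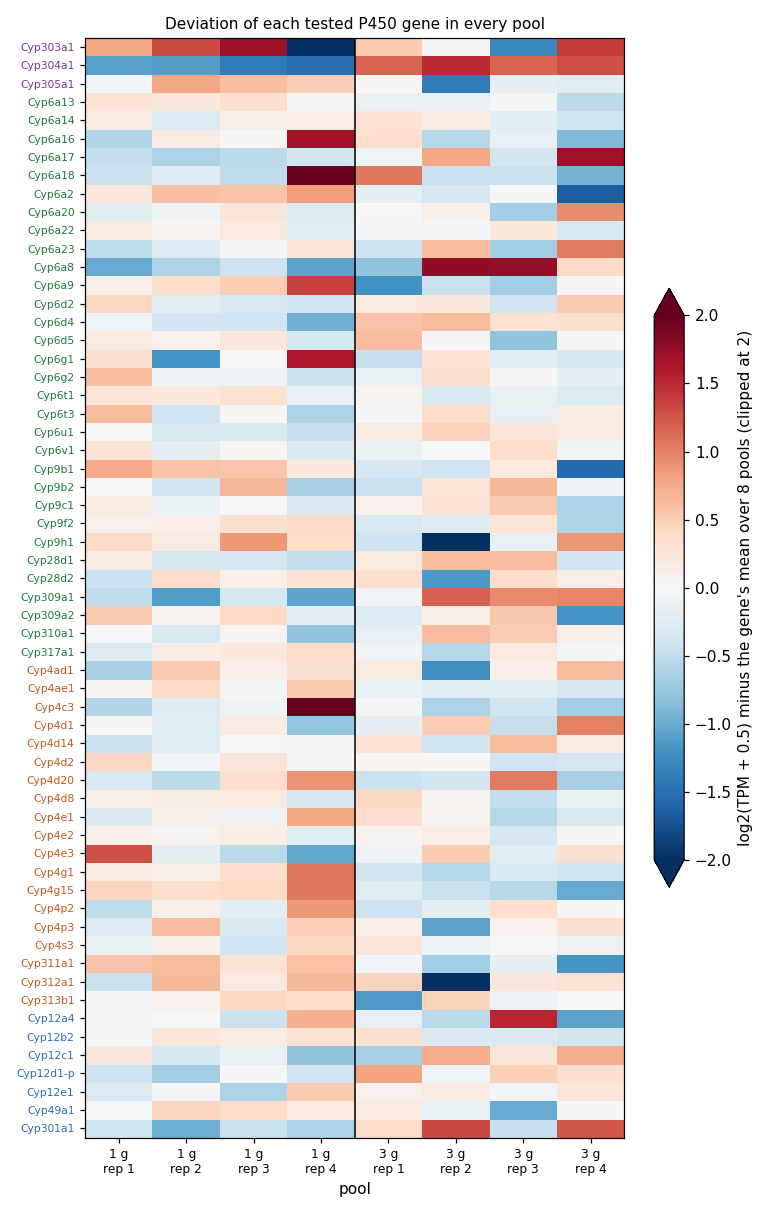
Deviation of log2(TPM + 0.5) from each gene's mean over the 8 pools (colour, clipped at 2) for the 60 tested P450 genes, grouped by clan (colour of the names), in the 4 pools at 1 g (left) and 3 g (right). Cyp304a1 changes sign between the groups in every pool, and control replicate 4 holds strong colours of its own, such as those of Cyp303a1 and Cyp4c3.

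A further 21 members had a mean below 1 TPM and were not tested. They were led by Cyp6w1, at 0.52, 1.25, 0.84 and 4.28 TPM at 1 g and 0.25, 0.17, 0.06 and 0.44 TPM at 3 g. Its groups did not overlap, as was so for Cyp4p1, at 0.47 to 0.99 TPM at 1 g and 0.22 to 0.32 TPM at 3 g. In a fit with no filter neither passed (adjusted p = 0.175 for Cyp6w1 and 0.0698 for Cyp4p1). The other low members overlapped. Among them was Cyp4d21, known from male courtship and also called sxe1, which was listed at 0 in 1 control pool and 2 pools at 3 g. In all, 9 members were listed at 0 in at least 1 pool, and between 76 and 80 were above 0 in a pool.

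Genes that work beside the P450s passed in 1 case, the glycosyltransferase Ugt35a. Among the 6 electron donors none passed (limma, 0 with an unadjusted p under 0.05), and their median log2 change was 0.0051. The ferredoxin gene CG1319 was at 31.6 ± 6.05 TPM at 1 g and 34.9 ± 1.30 TPM at 3 g, and the cytochrome b5-related gene Cyt-b5-r at 0.880 ± 0.459 and 3.51 ± 3.15 TPM. P450 reductase (Cpr) was at 53.0 ± 5.18 and 51.2 ± 10.01 TPM. Neither did any of 11 regulators such as cnc and Hr96 (limma, 0 with an unadjusted p under 0.05), with usp, the partner of the ecdysone receptor, at 29.4 ± 6.04 and 37.9 ± 4.15 TPM and maf-S at 91.9 ± 8.05 and 108 ± 16.9 TPM. Of 31 tested glutathione S-transferases, which join glutathione to toxins, none passed (limma, 5 with an unadjusted p under 0.05), while 22 lay below 0 in log2 change. Among all tested genes 16.3% had such a p and 52.8% lay below 0. The sum over 35 listed was 3088 to 3346 TPM at 1 g and 2468 to 3073 TPM at 3 g, with no overlap. GstD1 and GstS1 were its largest parts. GstS1 was at 752 ± 207 and 457 ± 87.6 TPM (adjusted p = 0.154) and GstT3 at 125 ± 18.3 and 82.0 ± 24.4 TPM. Of 8 tested UDP-glycosyltransferases, which attach sugars to small molecules, 1 passed, and it was lower. This was Ugt35a, at 1.30, 1.60, 2.08 and 4.38 TPM at 1 g and 0.16, 0.19, 0.54 and 0.42 TPM at 3 g (log2 change -1.69 ± 0.35, adjusted p = 0.0370). All its pools at 3 g were below 1 TPM, where the counting error is unknown. Its controls carried it past the filter of 1 TPM. Among all tested genes 2.06% passed and were lower. Of 6 tested P450s of ecdysteroid synthesis and breakdown under their own names and Cyp18a1, none passed (limma, 0 with an unadjusted p under 0.05). Cyp18a1, which inactivates ecdysone, was at 7.67 to 41.8 TPM at 1 g and 10.98 to 84.0 TPM at 3 g, and spok at 11.8 ± 3.35 and 9.42 ± 2.63 TPM.

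Several sets of tissue and timing markers differed between the groups as well, and their part in the P450 changes was not tested. Sums of the salivary gland and prepupal, muscle and fat body markers did not overlap between the groups. Neither did those of the Malpighian tubule markers, though narrowly and only with genes added to the planned list. Those of the midgut, oenocyte and male germline markers overlapped. Of 16 tested salivary gland and prepupal genes 13 passed, all higher at 3 g, and the sum over 24 listed was 1784 to 2404 TPM at 1 g and 15382 to 33736 TPM at 3 g. Eig71Eb, for example, was at 3.91 ± 0.773 and 2715 ± 1046 TPM, and 3 of the 24 were at 0 throughout. Most of the sum at 1 g was ImpE2, at 1565 to 2199 TPM at 1 g and 1215 to 1947 TPM at 3 g. With a log2 change of -0.21, ImpE2 was the 1 tested gene of this list below 0. Some that passed, such as Eig71Ei with a mean of 0.63 TPM at 1 g, reached the filter of 1 TPM only through the pools at 3 g. Of 25 muscle genes 12 passed, all lower, with sums of 6785 to 25257.5 TPM at 1 g and 2820 to 3930 TPM at 3 g, and TpnC4 was at 460.2 ± 186 and 97.7 ± 27.0 TPM. Of 11 fat body genes 2 passed, both higher, with sums of 2247 to 4358 TPM at 1 g and 6792 to 19411 TPM at 3 g, and the ones that passed were Fbp1 and Lsp1gamma. Of 36 midgut genes 18 were tested and 2 passed, both higher (Jon65Ai and Jon65Aiv). Their list had sums of 113 to 168 TPM at 1 g and 149.6 to 1119.6 TPM at 3 g, highest in 3 g replicate 3. Jon65Ai, with a mean of 0.15 TPM at 1 g, passed the filter of 1 TPM only through the pools at 3 g. The count of higher genes thus depends in part on the filter. Of 7 tested Malpighian tubule genes 1 passed and was higher (Best2, 12.3 ± 1.04 and 28.7 ± 7.74 TPM), with sums of 124 to 191 TPM at 1 g and 194 to 284 TPM at 3 g. In log2 change 5 of the tested tubule genes lay above 0 and 2 below, Irk3 (-0.46) and ZnT35C (-0.12). Untested genes of this list went both ways near the floor. The tubule enzyme gene Uro was listed at 0 in 3 controls and was at 0.05 to 0.47 TPM at 3 g. The gene salt was lower in every pool at 3 g, with means of 0.455 TPM at 1 g and 0.258 TPM at 3 g. Of 3 tested oenocyte genes none passed (limma, 1 with an unadjusted p under 0.05), and eloF and Fad2 were at or near 0. The one was CG18609, at 9.95 ± 4.73 and 2.68 ± 1.47 TPM, and CG17374 was at 35.6 ± 8.04 and 45.0 ± 11.7 TPM. Of 45 tested male germline genes none passed (limma, 0 with an unadjusted p under 0.05), with sums of 7389 to 15898 TPM at 1 g, 2058 TPM in 3 g replicate 2 and 10975 to 11746 TPM in the other pools at 3 g. Mst84Db was at 128 TPM in 3 g replicate 2 and at 454 to 1115 TPM in the other 7 pools, and Mst84Da likewise at 114 and 431 to 993 TPM.

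The reference genes RpL32 (log2 change 0.055), alphaTub84B (0.037) and Gapdh2 (-0.012) overlapped between the groups, and Act5C (0.40, adjusted p = 0.394) did too.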

How the data were processed

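RNA of whole pupae was measured in 8 libraries, 4 per group, each of 4 pooled pupae. The deposited table holds 1 whole number per gene and library, treated as a score and read as TPM times 100, since the table is named normalized TPM and each library sums to 1000000 within rounding after division by 100. How the authors made it is not stated. Per the submitters' processing notes the tools were eXpress 1.5.1, Bowtie2 2.1.0, Trimmomatic 0.30, CASAVA and DESeq, whose steps are not described. Build and annotation are not given in the sources used. TPM keeps no depth, so no counting interval is given.

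limma 3.58.1 (R 4.3.3) was fitted on log2(TPM + 0.5) of the 12044 genes whose mean reached 1 TPM, with group as the only term and the prior variance trended on level. Benjamini-Hochberg adjustment ran over all of them. The model was first tested on simulated data. Named members are the 4 past the threshold, the 25 with the smallest p and the 15 with the highest mean, 32 in all; of each other list up to 4 past the threshold are named, or 2. The members, lists and alternatives were chosen with earlier results of these data known. The fat body list also took Npl4, which is not a marker of that tissue. Between 13219 and 13388 of 13918 genes were above 0 per library, and mean correlations within a group were 0.881 to 0.961. Alternatives changed the pseudocount, filter, scaling, trend, weights, replicate block and pools. Neighbouring genes were read from the RefSeq table and exon overlaps from the Ensembl annotation; neither is known to match the build of the values, so no positions are given. Protein and promoter sequences were not analysed here. Figures were drawn with matplotlib 3.10.9.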

Additional observations from a re-analysis of the deposited data

Results flagged for a closer look

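In 120 groups of 4 pools (60 tested genes at 1 g and at 3 g), the highest or lowest pool lay far from the rest in 8, and chance gives about 1 in 20 groups. Of these, 4 were in control replicate 4. In that pool Cyp6a18 was at 6.25 TPM (other controls 0.69 to 0.92), Cyp4c3 at 8.93 TPM (0.47 to 0.85), Cyp4g15 at 25.1 TPM (15.3 to 16.2) and Cyp4d8 at 13.2 TPM (18.4 to 19.4). In control replicate 2, Cyp6a14 was at 3.81 TPM (5.12 to 5.29). In 3 g replicate 1, Cyp6a18 was at 3.03 TPM (0.38 to 0.75) and Cyp12b2 at 7.42 TPM (4.40 to 4.68). In 3 g replicate 3, Cyp4d20 was at 3.87 TPM (0.85 to 1.15).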

How the results depend on the processing

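The number of P450 genes higher at 3 g (3) was unchanged with no trend, a robust fit, a minimum of 5 TPM, no filter on low values, or 0.1 or 1 as pseudocount. It was also 3 with sample weights, where Cyp309a1 was lost and Cyp6u1 gained. It was 2 after median-of-ratios rescaling, 1 after quantile normalization, 1 with the replicate block, 1 to 3 without 1 pool, and 1 with both 3 g replicate 2 and control replicate 4 left out. The number lower (1) was 0 after either rescaling, with the replicate block and with both those pools left out, 4 with sample weights, and 0 to 2 without 1 pool. At an unadjusted p under 0.05 there were 13 to 24 members in these fits. For the losses the cause was not tested. The replicate number was not used as a pairing, since same-numbered pools correlated at -0.38, -0.52, 0.06 and 0.08 over their deviations from the group means. Calls over all genes moved too, from 516 (4.28%) to 147 (1.22%) with the block, 908 (7.54%) with sample weights, 382 and 401 after the rescalings, 228 with both pools left out and 162 to 479 without 1 pool. The median log2 change of -0.11 was -0.071 with a minimum of 5 TPM, -0.15 after median-of-ratios rescaling, -0.054 with both pools left out, and -0.20 to -0.049 without 1 pool. The difference in summed P450 level, -73.9 TPM, was -98.7 to -47.1 TPM without 1 pool. Cyp304a1 passed under all 19 alternatives (adjusted p = 2.24e-05 to 0.00785). Of the 32 named members 26 kept their direction under each alternative they were fitted in, which was 18 for 6 low members. Turns of direction, all in genes not past the threshold, were those of Cyp303a1 (-1.41 with sample weights, -1.12 to 0.92 without 1 pool, -1.05 with both pools left out), Cyp9b2 (-0.35 with sample weights and -0.054 with both left out), Cyp312a1 (0.19 with both left out, -0.76 to 0.054 without 1 pool), Cyp9c1 (-0.0022 with both left out, -0.0098 to 0.37 without 1 pool), Cyp4e2 (-0.13 to 0.057 without 1 pool) and Cyp6d5 (-0.29 to 0.18 without 1 pool). Depth is unknown, so the precision of genes near 0 TPM cannot be given.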
